A study of Arabidopsis thaliana with 9 samples.

Results

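4'-OH-2,5-DCB, a dichlorobiphenyl carrying a hydroxyl group, was set against its parent compound 2,5-DCB in whole Arabidopsis thaliana plants. The comparison took the 3 arrays of the hydroxylated compound, given at 5 mg per L, and the 3 arrays of the parent, given at 50 mg per L, which are 6 of the 9 arrays of the series. The other 3 arrays came from plants given the carrier acetone alone. All plants were 21 days old, were grown in boxes on nutrient medium and received acetone. The compound and its dose differ together, so their parts in any difference below cannot be told apart. The labels do not tie an array to particular boxes or plants. The p-values therefore rest on the spread among arrays alone, and that spread may be technical. No strain or genotype is given in the labels.

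Polychlorinated biphenyls are persistent pollutants that plants can take up from soil and water. Plants are known to hydroxylate foreign aromatic compounds with cytochrome P450s and then to join sugars or glutathione to them, through UDP-glycosyltransferases and glutathione S-transferases, before storing the products in the vacuole or the cell wall. A hydroxyl group on the ring is a point where a sugar can be joined, so the hydroxylated form enters this sequence at a later step than its parent.

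Signals are log2 values, 1 per gene and array, for 16550 genes. One array stood apart from the rest. The log2 signals of 4'-OH-2,5-DCB replicate 1 had an SD across genes of 1.68, and those of the remaining 8 arrays had SDs of 2.13 to 2.20. Its dim genes read higher and its bright genes read lower than on replicates 2 and 3 of its own group. Results are therefore given with this array and without it. The leaf marker and 1 of the root markers were bright in both exposed groups. RCA, the activase of the carbon-fixing enzyme Rubisco, was at 10.95 to 11.32 under 2,5-DCB and 11.06 to 11.56 under 4'-OH-2,5-DCB, and was the sole leaf marker measured of 15. PYK10, a root beta-glucosidase, lay between 11.22 and 12.10 on the 6 exposed arrays. The 2 expansin markers of root hairs, EXPA7 and EXPA18, were dim, at 3.15 to 4.23 and 2.79 to 3.51 on these arrays. With PYK10 they make up the 3 root markers measured of 21, whose mean log2 signal was 5.81 to 6.22 under 2,5-DCB and 5.97 to 6.38 under 4'-OH-2,5-DCB. The 3 flower and pollen markers had means of 3.01 to 3.31 and 2.91 to 4.21. In such bulk samples, fewer cells of a type and less RNA per cell cannot be told apart.

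With all 9 arrays in the fit, no gene separated the exposures past the threshold. In limma, 0 of 16550 genes had an adjusted p under 0.05 (0%), the lowest adjusted p was 0.0521, and 1636 genes had an unadjusted p under 0.05. With limma's trend and robust options 9 genes passed. Without 4'-OH-2,5-DCB replicate 1, 63 genes passed (0.381% of those tested), of which 30 were higher under 4'-OH-2,5-DCB (0.181%) and 33 were lower (0.199%). Of the 63, 45 differed at least 2-fold. With array medians centred and interquartile ranges made equal, the split was 36 higher and 80 lower. The count of 63 rested on single arrays. It was 0 without 2,5-DCB replicate 3, 0 without 4'-OH-2,5-DCB replicate 2 and 0 without replicate 3, 3 without 2,5-DCB replicate 2, and 16, 12 and 13 without control replicates 1, 2 and 3. It was also 0 when the control arrays were kept out of the estimate of the spread. The genes below are called from the 8-array fit, with their values on the array left out beside them.

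CCOAMT, PRX52, CSLB03 and UGT84A3 had lower signals with the hydroxylated compound, and 2,5-DCB had raised each of them over control. They are grouped here by the known roles of their products, not by a list, and were picked among called genes of this direction. Called loci known by number alone, 51 of the 63, were not sorted by role. Members of the same families among them, of either direction, are therefore missed. The wall genes XTH32 and GH9B8 lay the other way, as given below. The phenylpropanoid and lignin list had 1 tested gene of 16, with a difference of 0.13 that did not pass. CCOAMT encodes a caffeoyl-CoA 3-O-methyltransferase, an enzyme that methylates precursors of lignin. Its log2 signals were 5.81, 5.64 and 6.11 under 2,5-DCB against 3.86, 2.93 and 2.49 under 4'-OH-2,5-DCB, and 3.96, 2.92 and 2.77 in the controls. Every 2,5-DCB array lay above every other array, and the 4'-OH-2,5-DCB and control arrays overlapped. Without replicate 1 its difference was the largest of the 63 called genes, at -3.14 on the log2 scale (SE 0.34, 8.83-fold lower, limma adjusted p 0.0228). With replicate 1 it was -2.76 (adjusted p 0.0741), and CHI, at -2.86, was larger. The 4'-OH-2,5-DCB mean fell under the 25th percentile of signals on its arrays, which makes the size of the difference uncertain.

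PRX52 encodes a class III peroxidase, a secreted enzyme family that oxidises lignin precursors in the wall. Its signals were 6.57, 6.0 and 6.06 under 2,5-DCB against 5.97, 4.97 and 4.90 under 4'-OH-2,5-DCB, and the controls were at 4.54, 4.36 and 4.39. Replicate 1 came close to the 2,5-DCB arrays, whereas replicates 2 and 3 lay nearer the controls. The difference was -1.28 without replicate 1 (limma adjusted p 0.0347) and -0.93 with it (adjusted p 0.329). CSLB03, a cellulose synthase-like gene, was at 5.02, 5.25 and 4.66 under 2,5-DCB and at 3.36, 3.86 and 3.44 under 4'-OH-2,5-DCB, and the controls lay at 3.53 to 3.66. UGT84A3, whose enzyme joins glucose to hydroxycinnamic acids, was at 5.72, 5.69 and 5.62 under 2,5-DCB, at 4.61, 4.45 and 4.76 under 4'-OH-2,5-DCB, and at 4.30 to 4.74 in the controls. For CSLB03 and UGT84A3 the 4'-OH-2,5-DCB arrays overlapped the controls and none reached the 2,5-DCB arrays. Their differences were -1.33 and -1.07 without replicate 1 (limma adjusted p 0.0403 for both) and -1.42 and -1.07 with it (adjusted p 0.0741 and 0.0762).

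CML41, PPDK and a pair of neighbouring loci followed the same order of groups. CML41 encodes a calmodulin-like protein, one of the small proteins that bind calcium and pass its signal on. Its signals were 6.44, 6.96 and 7.11 under 2,5-DCB against 5.48, 4.62 and 4.17 under 4'-OH-2,5-DCB, and 5.07, 4.12 and 4.23 in the controls. The exposed groups did not overlap, and the difference was -2.44 (SE 0.32, 5.42-fold lower, limma adjusted p 0.0347) without replicate 1 and -2.08 with it. PPDK, whose enzyme pyruvate orthophosphate dikinase makes phosphoenolpyruvate from pyruvate, was at 8.28, 7.99 and 8.02 under 2,5-DCB and at 6.53, 6.88 and 6.88 under 4'-OH-2,5-DCB. The controls were at 6.88, 6.84 and 6.91, so replicates 2 and 3 lay within the control range and replicate 1 below it. PPDK differed by -1.22 (SE 0.12, limma adjusted p 0.016) without replicate 1 and by -1.34 (adjusted p 0.0567) with it.

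AT1G26240 and AT1G26250, adjacent protein-coding genes without a gene name in RefSeq, were both lower under 4'-OH-2,5-DCB. AT1G26240 was at 6.56, 7.01 and 7.48 under 2,5-DCB, at 6.13, 4.37 and 3.55 under 4'-OH-2,5-DCB, and at 3.04, 3.41 and 4.14 in the controls. Its replicate 1 under 4'-OH-2,5-DCB stood close to the 2,5-DCB arrays. AT1G26250 was at 3.29, 4.44 and 3.93 under 2,5-DCB and at 4.05, 1.81 and 1.60 under 4'-OH-2,5-DCB, so that replicate 1 lay among the 2,5-DCB arrays. Without replicate 1 the differences were -3.06 and -2.18, and with it -2.33 and -1.40. The 4'-OH-2,5-DCB and control means of AT1G26250 fell below the 25th percentile, so its size is uncertain.

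In other genes the 4'-OH-2,5-DCB group lay below both the controls and 2,5-DCB. EFR encodes the receptor kinase that recognises the bacterial elongation factor EF-Tu. Its signals were 5.90, 5.90 and 5.97 under 2,5-DCB, 5.63, 5.76 and 5.73 in the controls, and 6.37, 4.81 and 4.82 under 4'-OH-2,5-DCB. Replicates 2 and 3 were the lowest of the 9 arrays and replicate 1 was the highest. The difference of EFR was -1.11 (limma adjusted p 0.0119) without replicate 1 and -0.59 (adjusted p 0.579) with it, so its call rests on leaving that array out. PIFI encodes a chloroplast protein named for the post-illumination rise in chlorophyll fluorescence. It was at 9.45, 9.53 and 9.75 under 2,5-DCB and at 7.54, 8.48 and 8.76 under 4'-OH-2,5-DCB, with controls at 9.35 to 9.57. Its 3 4'-OH-2,5-DCB arrays were the lowest of the 9, and the difference was -0.96 (limma adjusted p 0.0461) without replicate 1.

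AT1G56300, a locus without a gene name in RefSeq, had one of the lowest adjusted p-values of the comparison. It was at 9.28, 9.59 and 9.56 under 2,5-DCB, at 8.73, 9.16 and 9.29 in the controls, and at 5.89, 7.44 and 7.08 under 4'-OH-2,5-DCB. All 3 4'-OH-2,5-DCB arrays lay below the other 6. Its difference was -2.22 (SE 0.20, 4.65-fold lower, limma adjusted p 0.0119) without replicate 1 and -2.67 (adjusted p 0.0741) with it. AT2G15880, AT4G16146, AT1G22570, AT5G57655 and AT1G21680 also had their lowest group mean under 4'-OH-2,5-DCB, with differences of -1.81, -1.56, -1.41, -1.39 and -1.18 without replicate 1. AT4G16146 shared the lowest adjusted p of the fit of all 9 arrays, 0.0521, with AT4G12290, which was at 7.80, 8.13 and 8.47 under 2,5-DCB and at 5.62, 6.31 and 6.15 under 4'-OH-2,5-DCB.

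**Figure D1:**
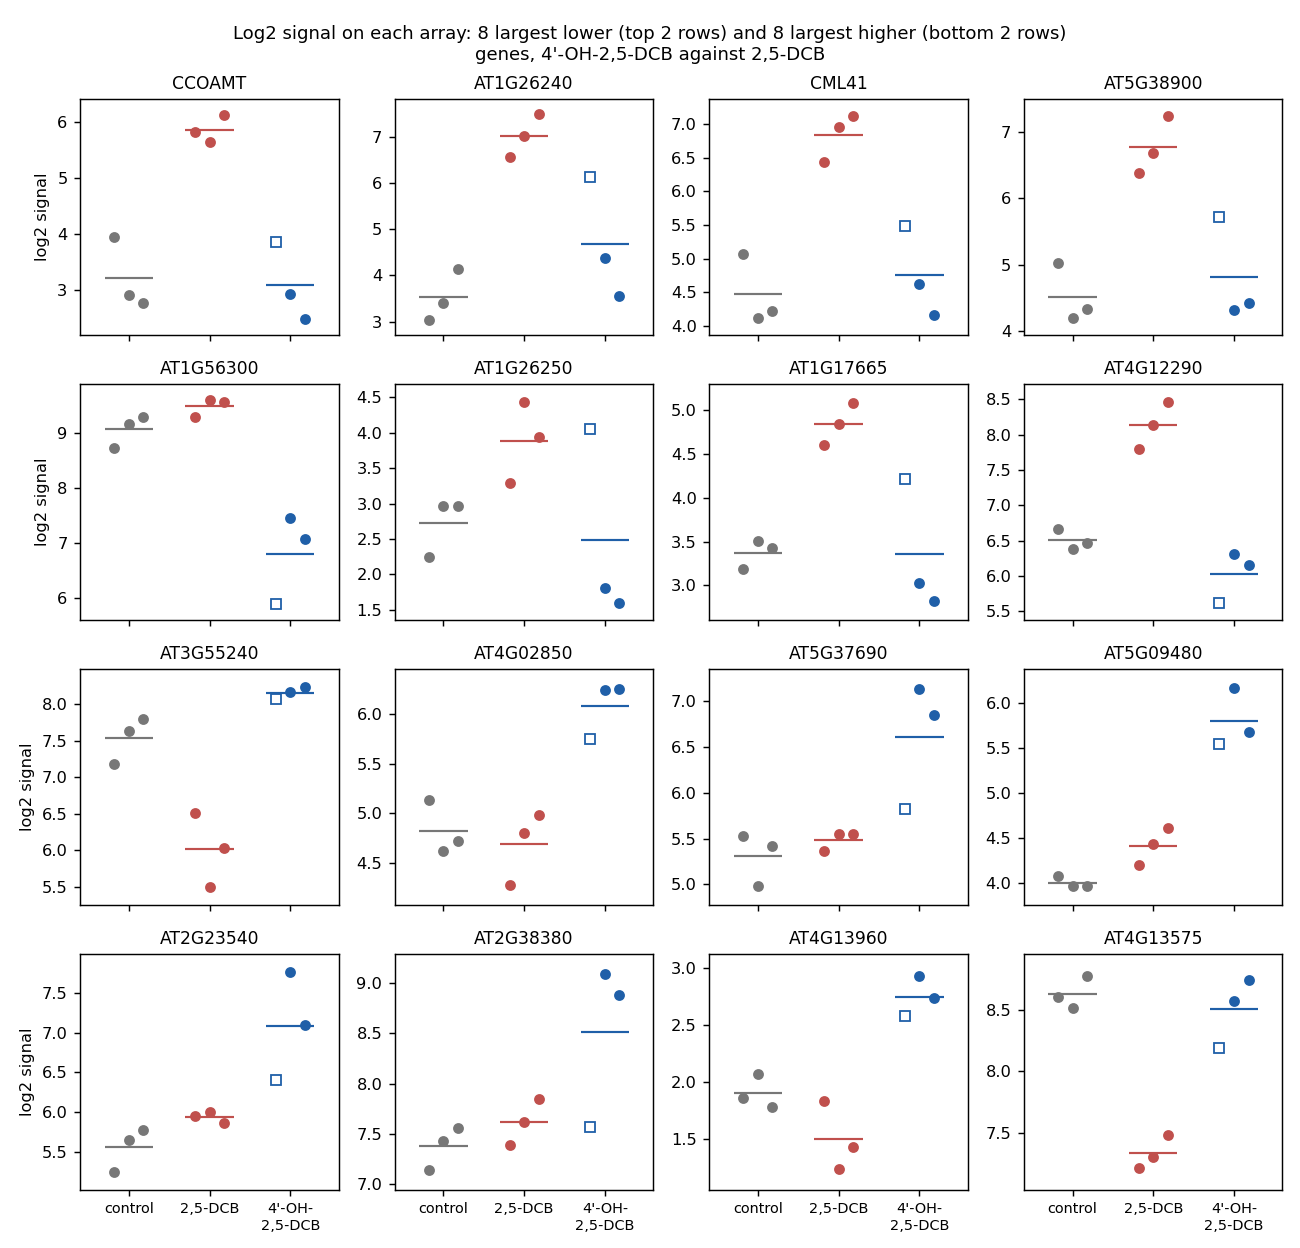
Log2 signal (vertical axis, a separate range in each panel) on each of the 9 arrays for the 8 largest lower and the 8 largest higher genes of the 8-array fit. Points are arrays, bars are group means over 3 arrays, and the open square is 4'-OH-2,5-DCB replicate 1. For CCOAMT the 2,5-DCB arrays at 5.64 to 6.11 stand above all others, and for AT3G55240 they stand below all others at 5.49 to 6.51.

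Genes with higher signals under the hydroxylated compound included a gene for a chloroplast protein and wall genes. These were called lower than control under 2,5-DCB in the 8-array fit. CaS encodes the calcium sensing receptor of chloroplast thylakoids. Its log2 signals were 8.32, 7.80 and 7.97 under 2,5-DCB against 8.39, 9.32 and 9.12 under 4'-OH-2,5-DCB, and 9.31, 9.41 and 9.15 in the controls. Replicate 2 lay within the control range, replicate 3 just under it and replicate 1 just above the 2,5-DCB arrays. The difference was 1.19 (limma adjusted p 0.0371) without replicate 1 and 0.91 (adjusted p 0.266) with it. XTH32, a xyloglucan endotransglucosylase/hydrolase that remodels the wall, was at 5.70, 5.72 and 5.69 under 2,5-DCB and at 5.23, 6.43 and 6.55 under 4'-OH-2,5-DCB, with controls at 5.96 to 6.13. Replicate 1 lay below the 2,5-DCB arrays and the other replicates lay above the controls. XTH32 differed by 0.79 (limma adjusted p 0.0347) without replicate 1 and by 0.37 (adjusted p 0.623) with it. Its own call against control under 2,5-DCB, at an adjusted p of 0.045, was lost with all 9 arrays (adjusted p 0.719). GH9B8, a glycosyl hydrolase of a family that holds plant endoglucanases, was at 5.17, 5.66 and 5.50 under 2,5-DCB and at 5.88, 6.49 and 6.48 under 4'-OH-2,5-DCB, with controls at 5.88 to 6.06. The exposed groups of GH9B8 did not overlap, and the difference was 1.05 (limma adjusted p 0.041) without replicate 1 and 0.85 (adjusted p 0.229) with it. GH9B8 likewise lost its call against control under 2,5-DCB, with an adjusted p of 0.0487 without replicate 1 and 0.273 with it.

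AT3G55240, unnamed in RefSeq, had the largest positive difference. It was at 6.51, 5.49 and 6.03 under 2,5-DCB, at 8.07, 8.17 and 8.24 under 4'-OH-2,5-DCB and at 7.17, 7.64 and 7.80 in the controls. The 3 groups did not overlap. The difference was 2.20 (SE 0.29, 4.59-fold higher, limma adjusted p 0.0347) without replicate 1 and 2.15 (adjusted p 0.0567) with it. AT4G13572 and AT4G13575, which are adjacent, were also higher than under 2,5-DCB, by 1.29 and 1.33 without replicate 1. AT4G13575 was at 7.21, 7.30 and 7.48 under 2,5-DCB against 8.19, 8.57 and 8.75 under 4'-OH-2,5-DCB and 8.52 to 8.77 in the controls.

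AT2G38380 and AT2G38390, another adjacent pair, were higher than in both other groups. AT2G38380 was at 7.39, 7.62 and 7.85 under 2,5-DCB, at 7.57, 9.09 and 8.88 under 4'-OH-2,5-DCB, and at 7.14 to 7.56 in the controls. Here replicate 1 stayed among the 2,5-DCB arrays. AT2G38390 was at 4.71, 5.05 and 4.94 under 2,5-DCB and at 6.91, 5.76 and 6.27 under 4'-OH-2,5-DCB, with controls at 4.30 to 4.47, and here replicate 1 was the highest array. Their differences were 1.36 and 1.12 without replicate 1 (limma adjusted p 0.0347 and 0.0488), and 0.89 and 1.41 with it. PDF1.2c, which encodes a plant defensin, an antifungal peptide of the jasmonate and ethylene response, was called 1.04 higher without replicate 1. Its signals were 1.73, 1.61 and 2.01 under 2,5-DCB against 1.99, 2.74 and 2.91 under 4'-OH-2,5-DCB, and the means of all 3 groups were dim, under the 25th percentile. The near-identical copies of this defensin may not be measured separately.

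Within the gene neighbourhood of CHI, a putative chitinase gene, adjacent loci had differences of opposite sign, of which 1 passed. AT2G43610 was at 5.81, 6.01 and 5.78 under 2,5-DCB, at 7.01, 7.05 and 6.81 under 4'-OH-2,5-DCB and at 4.93 to 5.30 in the controls. It was called against control under both exposures and was 1.07 higher under 4'-OH-2,5-DCB (limma adjusted p 0.0347) without replicate 1 and 1.09 higher (adjusted p 0.0741) with it. Its neighbour AT2G43620 was at 6.60, 7.03 and 6.66 under 2,5-DCB and at 5.49, 5.69 and 6.14 under 4'-OH-2,5-DCB. That difference of -0.85 did not pass without replicate 1 (limma adjusted p 0.0967). CHI, with 3 protein-coding genes between it and AT2G43610, was at 9.59, 9.79 and 10.46 under 2,5-DCB and at 6.72, 7.66 and 6.86 under 4'-OH-2,5-DCB. Its controls ran from 4.45 to 7.80, and the difference of -2.68 did not pass (limma adjusted p 0.185, 95% interval -4.54 to -0.82).

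The 63 genes could be placed by their levels against control in the 8-array fit. Of their 36 calls against control under 2,5-DCB there, 24 also passed with all 9 arrays, and of the 32 under 4'-OH-2,5-DCB, 16 did. Both comparisons with control use the same 3 control arrays, so each one's values are given side by side. Without 4'-OH-2,5-DCB replicate 1, 13% of all genes were called against control for 2,5-DCB (5.94% higher and 7.05% lower) and 7.17% for the hydroxylated compound (3.41% higher and 3.76% lower). Of the 33 lower genes, 20 were called higher than control under 2,5-DCB and not called under 4'-OH-2,5-DCB. In these 20 genes, which include CCOAMT, CML41, PPDK, PRX52, CSLB03 and UGT84A3, the median difference from control was 1.23 for 2,5-DCB and -0.12 for 4'-OH-2,5-DCB. All 3 2,5-DCB arrays lay above all controls in each of the 20. The classes here and below were formed from these same calls. Their medians, and this separation, therefore largely follow from how the genes were chosen and are given as a description. The other 13, EFR and PIFI among them, were called lower than control under 4'-OH-2,5-DCB and not called under 2,5-DCB, with medians of -0.91 and 0.19. A gene called against control in one exposure and not in the other is not thereby shown to differ, and the contrast of the exposures is the test of that difference.

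Of the 30 higher genes, 11 were called lower than control under 2,5-DCB alone, among them CaS, XTH32, GH9B8 and AT3G55240. Their median difference from control was -1.21 for 2,5-DCB and 0.03 for 4'-OH-2,5-DCB. A further 14, among them PDF1.2c, AT2G38380 and AT2G38390, were called higher than control under 4'-OH-2,5-DCB alone, with medians of 1.36 there and 0.21 under 2,5-DCB. AT2G43610 and AT2G22510 were higher than control under both exposures. AT3G26960 and AT1G57980 were lower under both, and less so under 4'-OH-2,5-DCB without replicate 1. AT3G26960 was at 6.39, 6.50 and 6.42 in the controls, at 4.79, 4.73 and 4.57 under 2,5-DCB and at 4.01, 5.75 and 5.50 under 4'-OH-2,5-DCB, so its replicate 1 was the lowest of the 9 arrays. AT1G57980 was at 6.84, 7.12 and 6.98 in the controls, at 4.81, 4.40 and 4.44 under 2,5-DCB and at 4.86, 5.49 and 5.62 under 4'-OH-2,5-DCB. AT5G02440 was the sole gene called in opposite directions, with controls at 4.62 to 4.99, 2,5-DCB arrays at 4.12 to 4.28 and 4'-OH-2,5-DCB arrays at 4.63, 5.34 and 5.29. Its replicate 1 lay among the controls. Both of its calls against control held only without that array (limma adjusted p 0.0271 and 0.0495) and were lost with it (0.253 and 0.440).

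**Figure D2:**
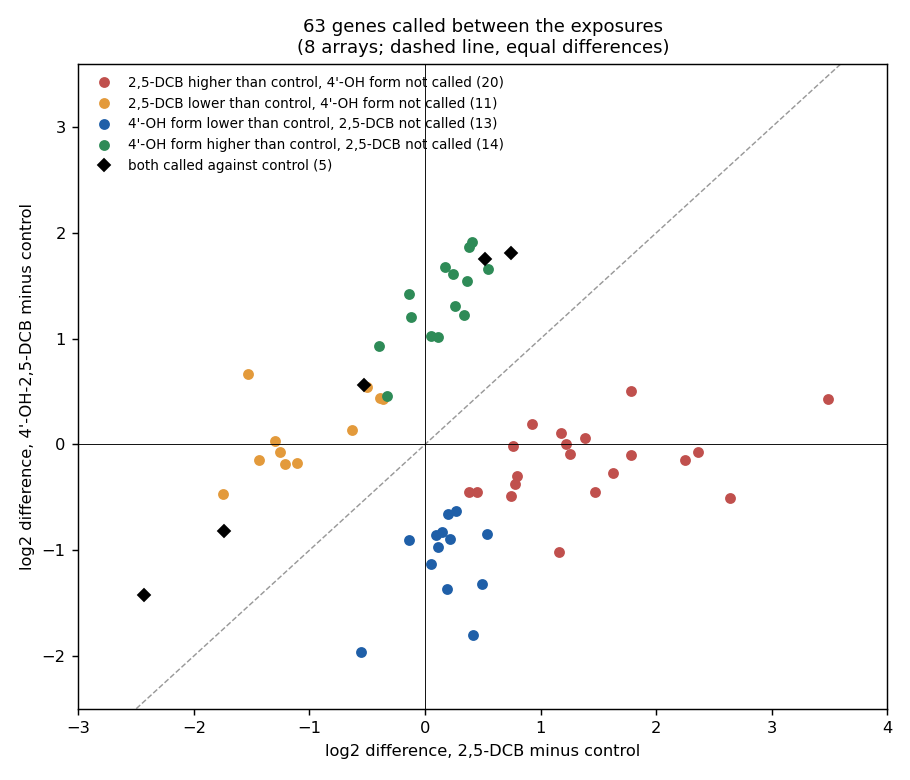
Log2 difference from control under 2,5-DCB (horizontal axis) and under 4'-OH-2,5-DCB without replicate 1 (vertical axis) for the 63 genes called between the exposures. Colours mark which exposure was called against control, and the dashed line marks equal differences. The 20 red genes spread along the horizontal axis and the 14 green genes along the vertical axis.

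The tested genes of the pollutant metabolism lists gave 1 call, and many listed genes were not tested. The list of 127 ABC transporters had 0 tested genes. The lists take genes by symbol, so loci known by number alone, which make up 51 of the 63 called genes, belong to none of them, and a list is not its whole family. The lists held 344 tested genes, of which 6 were called without replicate 1 (1.74%, against 0.381% of all genes) and 0 with all arrays. The lists were chosen with earlier results of these data known, so these shares are given as a description. Of 64 listed UDP-glycosyltransferases, which join sugars to small molecules, 55 were tested. Of these, 25 had a difference above 0 and 30 below 0, and UGT84A3 was the listed one called. Their median was -0.02, against -0.01 over all genes. UGT76B1, whose enzyme glucosylates signalling acids of the immune response, was at 7.39, 7.13 and 7.31 under 2,5-DCB against 6.03, 6.65 and 6.18 under 4'-OH-2,5-DCB and 5.27 to 5.46 in the controls. Its difference of -0.86 did not pass (limma adjusted p 0.0675, 95% interval -1.23 to -0.50). Of 240 listed cytochrome P450s 24 were tested, of which 0 were called, 9 lay above 0 and 15 below. CYP71B6, a P450 of indole metabolism, was at 7.29, 7.28 and 7.72 under 2,5-DCB against 5.81, 6.51 and 6.57 under 4'-OH-2,5-DCB, a difference of -0.89 (limma adjusted p 0.062). Tau glutathione S-transferases, the plant-specific class that detoxifies many herbicides, had 11 of 29 listed genes tested. Of these 0 were called and 10 lay above 0, with a median of 0.28. GSTU25 was the largest of them at 1.31 (95% interval 0.37 to 2.24, limma adjusted p 0.196), with signals of 3.75, 5.41 and 4.88 under 2,5-DCB against 5.21, 6.15 and 5.82 under 4'-OH-2,5-DCB. The exposed arrays of GSTU25 overlapped.

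The defence and senescence lists had few calls. Of 25 listed chitinase and defensin genes 16 were tested and 1 was called, the dim PDF1.2c, with 9 above 0 and 7 below. AT2G43610, beside CHI, was called higher as given above and is not in the list. PDF1.4, a defensin, was at 6.63, 6.39 and 6.69 under 2,5-DCB, at 4.88, 4.78 and 4.88 under 4'-OH-2,5-DCB and at 3.15 to 4.71 in the controls. Its exposed groups did not overlap, and its difference of -1.74 did not pass (limma adjusted p 0.0911). Of 71 listed WRKY transcription factors, regulators of defence and senescence, 7 were tested. All 7 had differences below 0 without replicate 1, under each of 3 other scalings too, and 0 were called. With replicate 1 it was 4 to 6 of the 7, depending on the scaling. Over all 16550 genes, 8498 had a difference below 0 without replicate 1. WRKY6 was at 8.82, 8.78 and 9.32 under 2,5-DCB against 7.98, 7.98 and 7.73 under 4'-OH-2,5-DCB, a difference of -1.12 (limma adjusted p 0.0853). The class III peroxidase list had 7 tested genes of 17. These 7 lay below 0 without replicate 1 under each scaling and 4 or 5 of them did with it, and PRX52 was the listed one called. Any peroxidase known by locus number alone is outside this list, so the direction of the whole family is not given by it. Of 47 listed beta-glucosidases 24 were tested and 0 were called. BGLU45, whose enzyme splits glucosides of lignin precursors, was at 5.22, 4.17 and 4.50 under 2,5-DCB against 3.12, 2.29 and 3.22 under 4'-OH-2,5-DCB, a difference of -1.88 (limma adjusted p 0.0736) with a dim 4'-OH-2,5-DCB mean. The 5 tested of 34 listed jasmonate genes had a median of 0.58, and PDF1.2c was called.

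In the lists of carbon starvation and recycling most genes had differences below 0, and PPDK alone passed. All 3 tested dark-induced and sugar starvation genes, of 21 listed, had differences below 0 without replicate 1, and PPDK was called. Of 11 listed genes for the breakdown of branched-chain amino acids and proline, and related steps, 5 were tested. All 5 lay below 0 both with and without replicate 1 and under each scaling, with medians of -0.68 and -0.50 and 0 called. AT4G33150, listed in RefSeq as LKR/SDH, the enzyme that starts lysine breakdown, was at 8.88, 7.52 and 8.06 under 2,5-DCB, at 6.81, 6.82 and 6.32 under 4'-OH-2,5-DCB and at 6.24 to 6.89 in the controls. Its difference of -1.58 did not pass (limma adjusted p 0.115). Of 32 listed autophagy genes 11 were tested, of which 9 lay below 0 and 0 were called. ATG8B, a ubiquitin-like protein of autophagosome membranes, was at 6.35, 6.44 and 6.10 under 2,5-DCB and at 5.36, 5.54 and 5.57 under 4'-OH-2,5-DCB, a difference of -0.74 (limma adjusted p 0.0599). All 5 tested genes of mitochondrial stress and hypoxia, of 23 listed, lay below 0 without replicate 1, with 0 called. It was 4 of 5 after quantile normalization or with ranges made equal. PDC2, a pyruvate decarboxylase, had the largest of these at -1.14 (limma adjusted p 0.163).

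In the Calvin cycle and light harvesting lists most tested genes were above 0 without replicate 1, and none passed. Chlorophyll synthesis genes, 3 tested of 15 listed, lay the other way. All 3 were below 0 with and without replicate 1, with medians of -0.54 and -0.28 and 0 called. With all 9 arrays it was 2 of the 3 after quantile normalization or with ranges made equal. All 4 tested Calvin cycle and photorespiration genes, of 19 listed, had differences above 0 without replicate 1 (median 0.49). With it, 3 of the 4 did (median 0.28). SBPASE, an enzyme that regenerates the carbon acceptor, was at 9.83, 9.83 and 9.23 under 2,5-DCB against 9.45, 10.17 and 10.29 under 4'-OH-2,5-DCB and 10.33 to 10.50 in the controls, a difference of 0.60 (limma adjusted p 0.196). Of 40 listed light harvesting and photosystem genes 7 were tested. Of these, 6 lay above 0 without replicate 1 (5 with ranges made equal) and 3 with it. LHCB4.2, a minor antenna protein, was at 8.74, 8.27 and 8.53 under 2,5-DCB against 8.55, 8.96 and 9.17 under 4'-OH-2,5-DCB. The direction of some Calvin cycle and light harvesting genes moved with replicate 1, on which bright genes read low. With all 9 arrays, 4 of 4 and 5 of 7 lay above 0 after quantile normalization or with ranges made equal. With medians centred alone it was 3 of 4 and 2 of 7. The part of replicate 1 in these directions was not tested.

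Growth and wall genes were mixed. Of 69 listed expansins and xyloglucan hydrolases 33 were tested, and XTH32 was called. Of the 33, 20 lay above 0 and 13 below without replicate 1, with a median of 0.08. The median was 0.29 with all arrays. EXPA9, which encodes a wall-loosening expansin, was at 5.12, 5.30 and 4.96 under 2,5-DCB against 6.01, 6.21 and 5.51 under 4'-OH-2,5-DCB. Its difference of 0.73 did not pass (limma adjusted p 0.202). Of 82 listed cellulose and pectin genes 14 were tested and 1 was called, CSLB03. Of 166 listed auxin genes 18 were tested and 0 were called. GH3.3, an enzyme that joins auxin to amino acids, was the most negative at -1.15 (limma adjusted p 0.166). In the flavonoid and anthocyanin list 5 of 19 genes were tested and 0 were called. DFR, the dihydroflavonol reductase of anthocyanin synthesis, was at 4.48, 4.64 and 4.63 under 2,5-DCB against 5.68, 5.25 and 5.98 under 4'-OH-2,5-DCB, a difference of 1.03 (limma adjusted p 0.0894). Of 44 listed abscisic acid and dehydration genes 6 were tested. Of these, 3 lay above 0 and 3 below, and 0 were called. COR15B, a cold and dehydration gene, was at 5.26, 5.36 and 5.96 under 2,5-DCB and at 4.84, 4.75 and 4.65 under 4'-OH-2,5-DCB, with controls at 7.43 to 7.87. Its exposed groups did not overlap, and its difference of -0.83 did not pass (limma adjusted p 0.152). KIN1, another such gene, lay the other way. It was at 2.59, 2.51 and 2.15 under 2,5-DCB against 3.76, 3.73 and 3.56 under 4'-OH-2,5-DCB, with controls at 3.30 to 4.43. Its difference of 1.23 did not pass (limma adjusted p 0.119), and its 2,5-DCB mean was below the 25th percentile.

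PAP85, a vicilin-like seed storage gene, was the sole seed marker measured of 21. It was at 6.06, 5.02 and 5.37 under 2,5-DCB, at 3.23, 3.95 and 2.83 under 4'-OH-2,5-DCB and at 3.76 to 3.79 in the controls. Every 2,5-DCB array lay above every other array, and the difference of -2.09 did not pass (limma adjusted p 0.062 without replicate 1 and 0.0741 with it). Its part in the other differences was not tested.

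**Figure D3:**
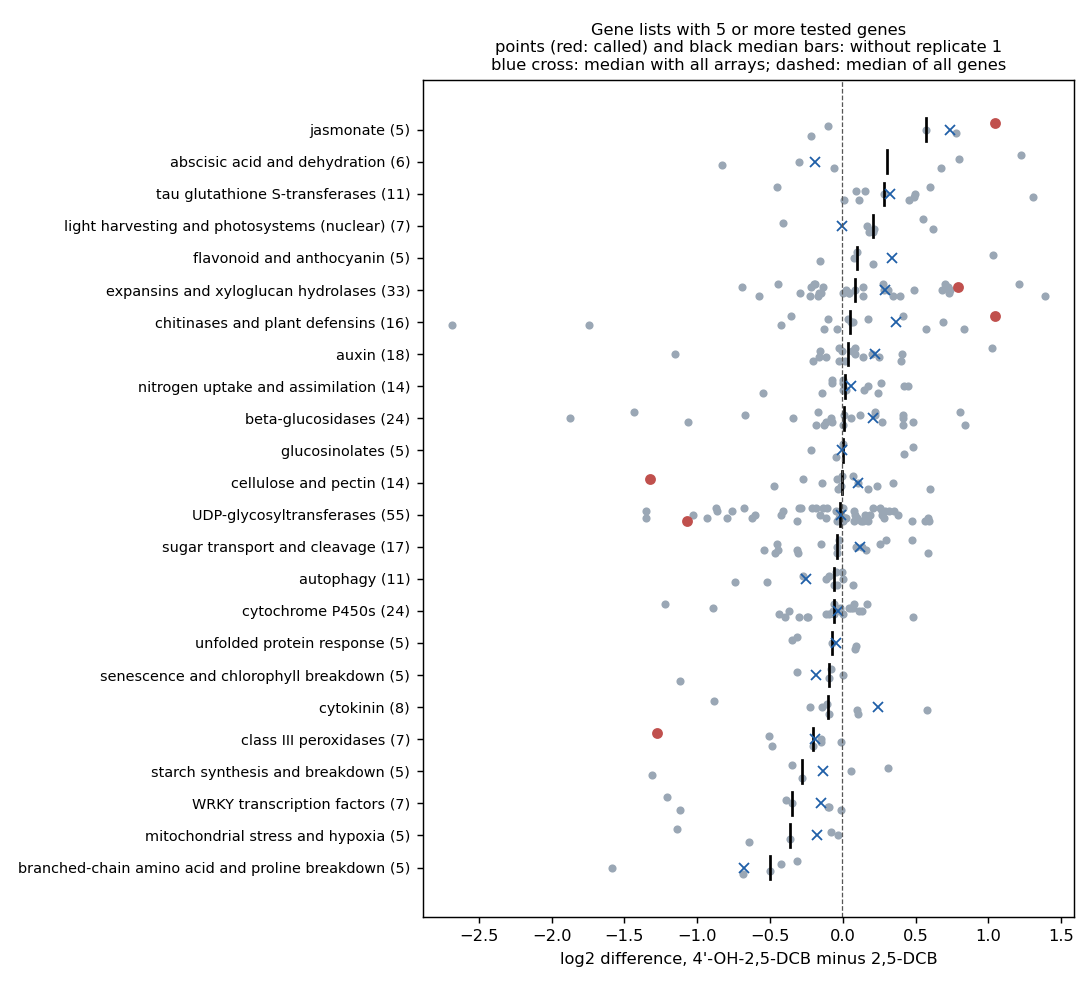
Log2 difference, 4'-OH-2,5-DCB minus 2,5-DCB, for the tested genes of each list with 5 or more of them (number in brackets). Grey points are genes and black bars list medians without replicate 1, red points are called genes, blue crosses are list medians with all arrays, and the dashed line is the median of all genes, at -0.01. Most lists straddle the line, with single genes far from their list.

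The values of the 63 genes on the array left out of the 8-array fit were set against the same 2,5-DCB arrays that took part in choosing them. On 4'-OH-2,5-DCB replicate 1, 29 of the 33 lower genes lay below all 3 2,5-DCB arrays, and 34.3% of all genes did so. Of the 30 higher genes, 20 lay above all 3, and 48% of all genes did so. These shares over all genes depend on brightness. The share below ran from 2.13% in the dimmest 4138 genes to 75.8% in the brightest 4138, which hold 13 of the 33 lower genes, and the share above ran from 86.3% to 10.3%, so the counts are given as a description. The exceptions among the lower genes were EFR, AT1G26250, AT2G21130 and AT3G03930. Those among the higher genes included XTH32, AT1G04680, AT5G23100 and AT3G26960, which lay below all 2,5-DCB arrays, and PDF1.2c and AT2G38380, which lay among them. All 63 kept their sign in the fit of all 9 arrays, of which the 8 are a part. In that fit 31 of the 33 and 25 of the 30 had an unadjusted p under 0.05.

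**Figure D4:**
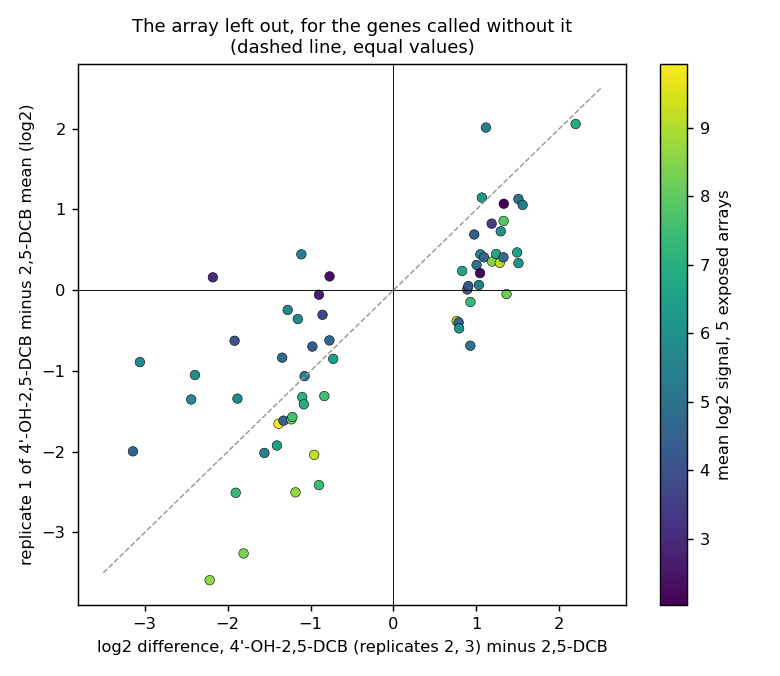
For the 63 genes, the log2 difference of 4'-OH-2,5-DCB replicates 2 and 3 from 2,5-DCB (horizontal axis) and that of replicate 1, which the fit left out, from the 2,5-DCB mean (vertical axis). Colour is the mean log2 signal on the 5 exposed arrays of the fit, and the dashed line marks equal values. Points in the upper left or lower right, such as EFR and XTH32, had the opposite sign on replicate 1.

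How far replicate 1 departed from its group followed the brightness of a gene. In the dimmest 4138 genes its median difference from replicates 2 and 3 was 0.92, and in the brightest 4138 it was -0.58. The contrast of the exposures with all 9 arrays had medians of 0.27 in the dimmest and -0.17 in the brightest of these sets. Without replicate 1 these were -0.04 and 0.01. The median SE of the contrast over genes was 0.234 with all arrays and 0.161 without replicate 1. The median within-group SD was 0.158 in the controls and under 2,5-DCB, 0.386 under 4'-OH-2,5-DCB, and 0.110 there without replicate 1. The last value rests on replicates 2 and 3 alone. An SD from fewer arrays tends to read lower, so it does not compare directly with those of the full groups.

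**Figure D5:**
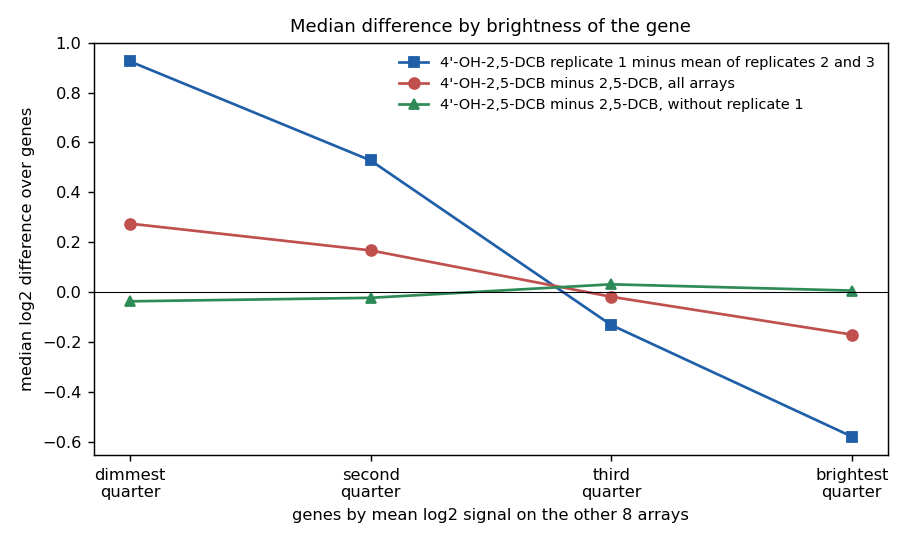
Median log2 difference (vertical axis) over each of 4 equal sets of genes, ordered along the horizontal axis by mean log2 signal on the 8 arrays without replicate 1. The blue line, replicate 1 minus the mean of replicates 2 and 3, runs from 0.92 to -0.58. The red line, the contrast with all arrays, runs from 0.27 to -0.17, and the green line, without replicate 1, stays between -0.04 and 0.03.

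Before any threshold, the arrays of the exposures did not overlap for 2527 genes (15.3%), 1141 of them higher (6.89%) and 1386 lower (8.37%) under 4'-OH-2,5-DCB. Just inside the threshold of the 8-array fit lay AT2G38390 and AT1G57980, with limma adjusted p of 0.0488 and 0.0489. Just outside it lay AT5G24460 and AT3G48020, both at 0.0501, with differences of -0.91 and -1.69.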

How the data were processed

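RNA from whole plants was hybridised to Affymetrix whole-transcript arrays, 3 per group. The values the authors deposited are log2 signals, 1 for each probe set and array. Per the submitters' processing notes they come from Affymetrix Expression Console. How probes were summarized and corrected for background is not stated in the labels. No further normalization was applied. Of 38408 probe sets, 16722 carried exactly 1 gene symbol in the platform annotation, 759 carried several and 20927 were unnamed. The brightest probe set on average was kept per gene, which left 16550 genes, of which 16411 were matched to RefSeq (TAIR10.1) by gene ID. Promoter and protein sequences were not used here.

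Groups were fitted with limma 3.58.1 in R 4.3.3 (lmFit, eBayes, 1 term per group, two-sided), with all 9 arrays and without 4'-OH-2,5-DCB replicate 1. The threshold for a call was an adjusted p under 0.05 (Benjamini-Hochberg, over all genes). Intervals are unadjusted. The fit was tested on simulated data. The number of arrays limits the precision.

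The named genes are, per direction, the 12 of largest difference among those called without replicate 1, as no gene was called with all 9 arrays. The 5 smallest p-values per direction of the fit of all 9 arrays were added. Each list with 3 or more tested genes gave its called members and up to 2 with the smallest p in that fit. The rest were 3 per direction of those called alike in both comparisons with control. EFR, PIFI, CaS, GH9B8, AT2G38390, AT1G21680, PAP85 and the loci given as exceptions, threshold cases or members of a class were named after their values were seen. The members, the 57 gene lists and the tests were chosen with earlier results of these data known. At least 3 genes were tested in 34 lists, 1 or 2 in 14 lists and none in 9 lists. Of the 34, 27 had 0 genes called in the fit without replicate 1.

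Same-numbered arrays deviated together at correlations of -0.25 to 0.07, and arrays of different number at -0.21 to 0.26. Deviations from the mean of 3 arrays are tied to each other, so these values cannot decide whether same-numbered arrays share a batch. Alternatives were other scalings, filters on dim genes, other probe set choices, only the exposed arrays, trend and robust options, array weights, a replicate block and leaving out each array.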

Additional observations from a re-analysis of the deposited data

Results flagged for a closer look

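Probe sets that the annotation pairs with no single gene were kept out of the comparison above. When all 38408 probe sets were fitted without 4'-OH-2,5-DCB replicate 1, 11 of the 21686 such probe sets had a limma adjusted p under 0.05, 4 higher and 7 lower under 4'-OH-2,5-DCB. With all 9 arrays the count was 0. The probe sets are unnamed here, and they were singled out because they lie outside the genes analysed.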

How the results depend on the processing

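The count of 0 genes with all 9 arrays became 10 after quantile normalization, 3 with medians centred and interquartile ranges equal, 21 and 17 with genes under the 25th and 50th percentile left out, 9 with trend and robust options, 340 with array weights, which gave 4'-OH-2,5-DCB replicate 1 a weight of 0.0646, and 63 without that array. Leaving out single arrays gave 0 to 63. It stayed 0 with medians centred, with every probe set of 1 symbol, with all probe sets, with only the exposed arrays, at 2-fold and with the replicate block, with 1038 to 3944 at an unadjusted limma p under 0.05 in these and the leave-one-out fits that gave 0. The count of 63 without 4'-OH-2,5-DCB replicate 1 became 116 with ranges made equal (60 shared with the 63), 116 and 183 with the dim-gene filters, 184 with trend and robust options, 148 with array weights, 17 with all probe sets, 4 with the replicate block and 0 with only the exposed arrays, where 2332 had an unadjusted p under 0.05. Leaving out a further array gave 0 to 68. When that left 1 array of 4'-OH-2,5-DCB, it was assumed to vary like the other groups. The filters and the all-probe-set fit change how many features are tested, and for the other settings the cause was not tested.

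For the 96 named genes, values under the alternatives were set against the fit of all 9 arrays. Of these values, 13 changed sign and 122 newly passed the threshold. Of the 122, 32 passed without replicate 1 and 44 with array weights, which gave that array little weight. Many of the named genes were chosen for their calls without replicate 1, so these passes largely follow from that choice. EXPA7 became -0.045 after quantile normalization, -0.0365 with ranges equal and -0.108 with array weights, and ran from -0.149 to 0.390 when single arrays were left out. SIR became 0.0127, 0.307 and 0.00163 under the same settings and ran from -0.372 to 0.0314. With array weights VGD1 became -0.166 and BZIP60 0.0334, and leaving out single arrays gave -0.173 to 0.705 and -1.03 to 0.0888. APS3 ran from -0.104 to 0.317. The number of arrays and the narrow range of replicate 1 limit these calls, and dim genes limit sizes.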
